A study of Mus musculus with 8 samples.

Results

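The 9 genes described here encode heat shock chaperones of the cytosol and the mitochondrial matrix: *Hspa1a*, *Hspa1b*, *Hspa8*, *Hsp90aa1*, *Hsp90ab1*, *Hsph1*, *Dnajb1*, *Hspd1* and *Hspe1*. They were taken by gene symbol from a table of 16160 genes, and all 9 were among the 13211 genes with enough reads to be tested. The RNA came from monocytic cells of bone marrow (BM), sorted as CD11c-CD11b+Ly6G-SiglecF-Ly6Chi and then by CD115, the receptor for macrophage colony-stimulating factor that *Csf1r* encodes. In tumor-bearing (TB) mice the sorted cells are monocytic myeloid-derived suppressor cells (M-MDSCs), named tCD115- and tCD115+ by subset. Their counterparts in tumor-free (naive) mice are monocytes, named nCD115- and nCD115+. TB mice carried subcutaneous EL4, a T cell lymphoma line of the C57BL/6 strain, and are labelled day 21 after inoculation. All mice were wild-type C57BL/6. Male or female mice of 6 to 10 weeks were used, with neither sex nor age given for a single library. Each group has 2 libraries, 8 in all, described as biological replicates, and pooling of animals is not described in the labels or methods.

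Heat shock chaperones bind unfolded or partly folded proteins and help them to fold, to assemble or to be degraded. HSP70 proteins work in cycles of ATP hydrolysis that J-domain proteins start and nucleotide exchange factors such as HSP110 end. HSP90 takes over clients such as kinases and steroid receptors. HSP60 with its lid HSP10 folds proteins inside mitochondria. Some of these genes are transcribed in nearly all cells, while others are switched on by heat shock factor HSF1 when proteins misfold, through repeated GAA and TTC units in their promoters. *Hspa1a* and *Hspa1b* are the classical heat-inducible pair, and their mRNA is also known to respond to the handling of cells during isolation.

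The largest differences lay between the hosts. *Hspa1a* and *Hspa1b* fell in both subsets of EL4 TB mice against naive mice, with log2 fold changes of -3.50 to -2.58, and were the members called at an adjusted p under 0.05 with a fold change of at least 2. *Hsp90aa1* and *Hspd1* were higher in EL4 TB mice in both subsets by less than 2-fold, and *Hspe1* was lower in CD115- than in CD115+ cells of either host. *Hspa8*, *Hsp90ab1* and *Hspd1* were lower in tCD115- than in tCD115+. Of all these differences, only that of *Hspe1* in EL4 TB mice stayed past the adjusted p with any 1 library left out. Levels are given in CPM, read counts relative to library size after scaling by the trimmed mean of M-values (TMM). Tests are those of edgeR's quasi-likelihood model, and p-values were adjusted by the method of Benjamini and Hochberg over the 13211 genes. Reads assigned to genes totalled 69692398 to 95353798 per library, and no member had fewer than 227 reads in a library. *Csf1r* mRNA was present in every library, at 283 and 490 CPM in tCD115-, 891 and 869 CPM in tCD115+, 825 and 728 CPM in nCD115-, and 1159 and 1333 CPM in nCD115+. A list of 9 neutrophil genes held the granule protein genes *Mpo*, *Elane*, *Prtn3*, *Camp*, *Ltf* and *Ngp*, and also *Ly6g*, *S100a8* and *S100a9*. These genes summed to 66728 to 109155 CPM in tCD115- and 47606 to 61911 CPM in nCD115-, against 2017 to 2441 CPM in tCD115+ and 1131 to 1378 CPM in nCD115+. The summed level of 11 T and NK cell markers was 53.7 to 114 CPM in the CD115- libraries against 6.14 to 8.09 CPM in the CD115+ libraries. Those of basophils and mast cells (8 genes) summed to 120 to 204 CPM in CD115- and 7.07 to 15.9 CPM in CD115+ libraries. In each host 3 of these 8 were called higher in CD115- cells. Their log2 fold change was positive for 5 of 8 in EL4 TB mice and for 3 of 8 in naive mice (medians 0.74 and -0.02), so the sum does not describe the whole list. The 6 monocyte markers, *Csf1r* among them, summed to 5537 to 7072 CPM in tCD115- and 9753 to 9773 CPM in tCD115+. In naive mice they summed to 7915 to 8481 CPM in nCD115- and 9996 to 10963 CPM in nCD115+. Past the adjusted p, 5 of the 6 were lower and 1 was higher in tCD115- than in tCD115+, where 19.9% and 17.7% of all tested genes were. Between the naive subsets 1 of the 6 was lower and 1 was higher, where 3.23% and 11.8% of all genes were. The 7 plasma cell markers summed to 320 to 330 CPM in tCD115- against 290 to 306 CPM in tCD115+. Their sums in naive mice were 317 to 323 CPM in nCD115- against 248 to 276 CPM in nCD115+. Of these 7, 3 were called higher in tCD115- and 2 in nCD115-, and 4 and 6 had a positive log2 fold change. In sorted bulk samples, fewer cells of a type and less RNA per cell cannot be told apart. The part of other cell types in the differences between CD115- and CD115+ cells was not tested. Between the hosts, 10 B cell markers summed to 10.02 to 15.5 CPM in EL4 against 27.2 to 31.6 CPM in naive libraries, and 3 of 10 were called lower in each subset. Of all tested genes, 2.43% were called lower in EL4 TB mice in CD115- cells and 1.66% in CD115+ cells. The 8 dendritic cell markers tested summed to 29.0 to 63.2 CPM in EL4 against 72.9 to 113 CPM in naive libraries, with 4 called lower in CD115- and 3 in CD115+ cells. The 9 erythroid markers tested summed to 2.03 to 3.64 CPM in EL4 against 6.84 to 21.8 CPM in naive libraries, with 2 called lower in CD115+ cells and *Hbb-bs* at 0 in every CD115+ library of either host. These sums did not overlap between the hosts, and their part in the differences between EL4 TB and naive mice was not tested.

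The upstream sequences of *Hspa1a* and *Hspa1b* are shown first because these genes carry the largest difference and are near copies of each other. That of *Hspe1* is shown because it lies within the annotated span of *Hspd1*, the other gene of the mitochondrial chaperonin. The RefSeq table on build GRCm38.p6 gave promoter windows for 6 of the 9 members. *Hspa1a* (gene ID 193740) spans chr17:34969359-34972156 and *Hspa1b* (gene ID 15511) chr17:34956429-34959238, with 10120 bases between them and both on the minus strand. The 250 bases before the start of *Hspa1a* (chr17:34972157-34972406) and of *Hspa1b* (chr17:34959239-34959488) differ at 3 positions. Capitals mark a match to the paired heat shock units GAANNTTC or TTCNNGAA, each of which reads the same on both strands.
Hspa1a: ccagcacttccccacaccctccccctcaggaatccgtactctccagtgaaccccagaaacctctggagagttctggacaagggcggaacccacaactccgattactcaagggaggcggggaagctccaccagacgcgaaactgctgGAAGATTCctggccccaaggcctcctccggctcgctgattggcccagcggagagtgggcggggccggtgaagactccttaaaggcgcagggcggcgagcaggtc
Hspa1b: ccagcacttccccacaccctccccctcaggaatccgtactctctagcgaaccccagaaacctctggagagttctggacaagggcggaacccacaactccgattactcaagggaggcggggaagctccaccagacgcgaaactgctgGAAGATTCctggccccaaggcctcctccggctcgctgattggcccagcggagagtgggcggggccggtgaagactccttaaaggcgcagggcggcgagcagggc
Hspe1: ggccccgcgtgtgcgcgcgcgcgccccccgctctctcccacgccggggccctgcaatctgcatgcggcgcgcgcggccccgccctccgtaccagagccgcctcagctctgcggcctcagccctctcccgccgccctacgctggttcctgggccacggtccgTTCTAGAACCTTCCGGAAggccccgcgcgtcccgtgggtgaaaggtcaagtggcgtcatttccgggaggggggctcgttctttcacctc
The match in *Hspa1a* and *Hspa1b* starts 104 bases before the transcription start in each. Before *Hspe1* (chr1:55087898-55088147, plus strand) overlapping matches form an unbroken run of 18 bases, which starts 89 bases before its start and holds both orders of 3 alternating units (GAA, TTC, GAA and TTC, GAA, TTC, each 2 bases apart). *Hspd1* (chr1:55077833-55088243, minus strand) and *Hspe1* (chr1:55088148-55091317) stand head to head with 96 bases of overlap. Of the *Hspe1* window, 215 bases also lie in the second of 2 upstream windows of *Hspd1*, so the run stands before the start of *Hspe1* and before the second, internal start of *Hspd1*, but after the first start of *Hspd1*. Over the full 300-base windows, each of 2 windows of *Hsph1* had 1 match to GAANNTTC and 2 to TTCNNGAA, among them 3 alternating units. Neither pattern was found in the 2 windows of *Dnajb1* or in the first of *Hspd1*. Of 32851 promoter windows in the table, 7.86% held GAANNTTC, 8.52% held TTCNNGAA and 15.1% held either. In the same windows, 0.310% held 3 units that begin with GAA and 0.320% held 3 that begin with TTC. A match in a window is a description of the letters.

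The levels of the 9 mRNAs covered a wide range. On the authors' FPKM scale, which divides by gene length and so allows genes to be compared, *Hspa8*, the constitutive HSP70 (HSC70), was the most abundant, with a mean of 817 ± 163 FPKM over the libraries (SD, n = 8). *Hsp90ab1*, the constitutive cytosolic HSP90, followed at 431 ± 90.0 FPKM and *Hsp90aa1*, its inducible paralog, at 110 ± 23.4 FPKM. Each of these levels was above the next in all 8 libraries. The HSP60 gene *Hspd1* (55.1 ± 12.6 FPKM) was above the HSP10 gene *Hspe1* (46.3 ± 13 FPKM) in 7 of 8 libraries, so these neighbours overlap. *Dnajb1*, the major stress-responsive J-domain partner of HSP70, stood at 23.9 ± 1.71 FPKM. *Dnajb1* was above *Hspa1b* (12.6 ± 12.3 FPKM) in 6 of 8 libraries. *Hspa1a* (10.7 ± 10.7 FPKM) was above *Hsph1*, the HSP110 nucleotide exchange factor of HSP70 (9.41 ± 3.41 FPKM), in 4 of 8. Within a gene, the highest library was 32.5 times the lowest for *Hspa1a* and 26.2 times for *Hspa1b*, and 1.21 to 2.83 times for the other members. For the inducible pair the 4 lowest libraries were those of EL4 TB mice, as the plot of each member by library shows.

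**Figure D1:**
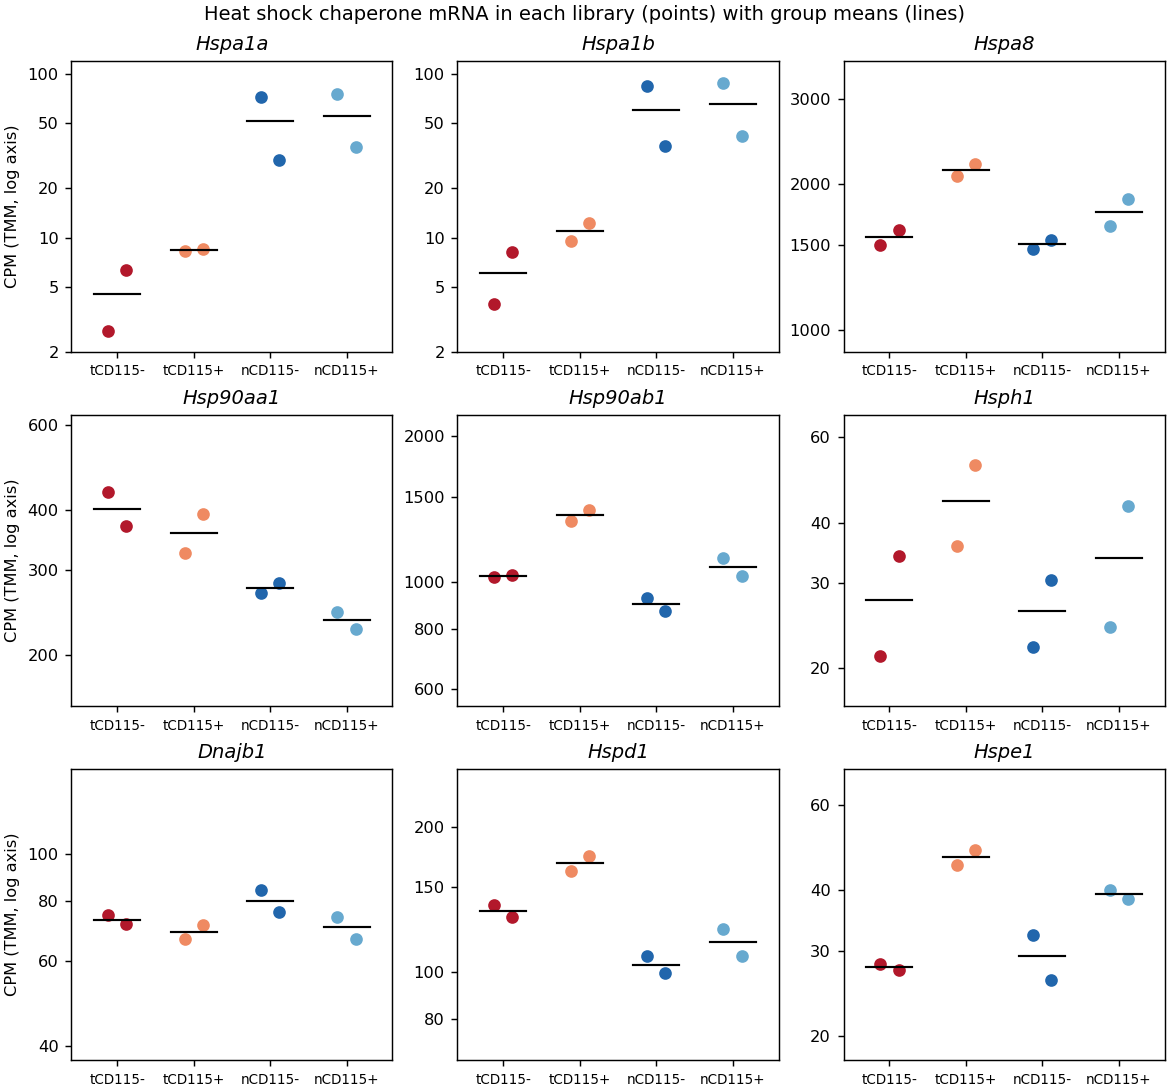
Level of each of the 9 chaperone mRNAs in TMM-scaled CPM on a log axis, with a point for each library and a line at the mean of each group of 2. The 4 points of EL4 TB mice lie below the 4 points of naive mice for Hspa1a and Hspa1b, and above them for Hsp90aa1 and Hspd1.

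*Hspa1a*, which encodes inducible HSP70, had 2.69 and 6.37 CPM in tCD115- and 8.27 and 8.46 CPM in tCD115+, against 72.8 and 29.9 CPM in nCD115- and 75.3 and 35.7 CPM in nCD115+. *Hspa1b*, whose protein is nearly the same, had 3.92 and 8.18 CPM in tCD115- and 9.59 and 12.3 CPM in tCD115+, against 83.9 and 36.1 CPM in nCD115- and 88.5 and 42.0 CPM in nCD115+. The lowest naive library was above the highest EL4 library for both genes, and replicate 1 was above replicate 2 in both naive groups. In CD115- cells *Hspa1a* averaged 4.53 ± 2.60 CPM in EL4 TB mice and 51.4 ± 30.3 CPM in naive mice (SD, n = 2 each), an 11.3-fold lower mean, and the mean of *Hspa1b* was 9.92-fold lower. The log2 fold change (tCD115- over nCD115-) was -3.50 with a standard error (SE) of 0.62 for *Hspa1a* and -3.31 (SE 0.59) for *Hspa1b*, each at an adjusted p of 0.0260 from edgeR's quasi-likelihood test. In CD115+ cells (tCD115+ over nCD115+) it was -2.73 (SE 0.59, adjusted p = 0.0383 from the same edgeR test) for *Hspa1a* and -2.58 (SE 0.56, adjusted p = 0.0390 from the same edgeR test) for *Hspa1b*. Averaged over both subsets, a contrast chosen after seeing the data, EL4 TB mice were lower by 3.11 (SE 0.43) for *Hspa1a* and 2.94 (SE 0.41) for *Hspa1b*, with edgeR adjusted p of 0.00467 and 0.00473. In this averaged contrast 2.84% of all tested genes were called lower. Between the subsets of EL4 TB mice the log2 fold changes (tCD115- over tCD115+) were -0.88 (95% interval -2.30 to 0.53) for *Hspa1a* and -0.85 (-2.19 to 0.49) for *Hspa1b*. Between those of naive mice (nCD115- over nCD115+) they were -0.11 (-1.42 to 1.2) for *Hspa1a* and -0.12 (-1.38 to 1.14) for *Hspa1b*.

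The calls of this pair rest on few libraries. In CD115- cells the call on *Hspa1a* was lost without tCD115- replicate 1 (-3.01, edgeR adjusted p = 0.206), without tCD115- replicate 2 (-4.25, edgeR adjusted p = 0.0636) and without nCD115- replicate 1 (-2.72, edgeR adjusted p = 0.115). The call on *Hspa1b* was lost without the same libraries, at -2.88, -3.94 and -2.58 (edgeR adjusted p of 0.214, 0.0695 and 0.115). In CD115+ cells both calls were lost without any 1 library of tCD115-, tCD115+ or nCD115+, with edgeR adjusted p of 0.0822 to 0.199 for *Hspa1a* and 0.0890 to 0.181 for *Hspa1b*. The log2 fold changes of all CD115+ fits with 1 library left out stayed between -3.17 and -1.94. The averaged contrast lost its calls without tCD115- replicate 1 (edgeR adjusted p of 0.0509 for *Hspa1a* and 0.0542 for *Hspa1b*) and in no other such fit. With only the 4 libraries compared, both genes missed the threshold in CD115- cells (edgeR adjusted p = 0.0830 for each) and in CD115+ cells (edgeR adjusted p of 0.0769 for *Hspa1a* and 0.0936 for *Hspa1b*). Without a filter on low counts they missed it in CD115+ cells (edgeR adjusted p of 0.0693 and 0.0701). With 2 libraries per arm, a fit that leaves 1 out assumes that the lone library varies like the other groups.

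Of the 100-base windows of the longest transcript, 48.6% of *Hspa1a* and 49.9% of *Hspa1b* occurred unchanged in transcripts of other genes, chiefly in each other, so the split of reads between them is uncertain. With the counts of both genes summed into 1 row, the log2 fold change was -3.39 (edgeR adjusted p = 0.0273) in CD115- cells and -2.65 (edgeR adjusted p = 0.0413) in CD115+ cells. The summed level was 6.61 and 14.5 CPM in tCD115- and 17.9 and 20.7 CPM in tCD115+, while nCD115- had 157 and 66.0 CPM and nCD115+ had 164 and 77.7 CPM. Immediate early genes, which are known to respond to cell handling, summed to 1265 and 1732 CPM in tCD115- and 2217 and 1929 CPM in tCD115+, against 2463 and 2316 CPM in nCD115- and 2555 and 2591 CPM in nCD115+. Of the 20 genes of that list, 5 were lower and 1 was higher past the adjusted p in tCD115- against nCD115-, where 6.49% of all tested genes were lower and 3.19% higher. In tCD115+ against nCD115+, 2 were lower and 1 was higher, where 4.2% and 6.09% of all genes were. The higher one was in both cases *Ier3*, a stress-responsive survival gene, at 0.81 (edgeR adjusted p = 0.0192) in CD115- and 1.12 (edgeR adjusted p = 0.00928) in CD115+ cells. *Atf3*, a stress-induced transcription factor, fell by 1.24 (edgeR adjusted p = 0.0341) in CD115- and by 1.04 (edgeR adjusted p = 0.0481) in CD115+ cells. *Fos*, a subunit of the AP-1 factor, fell by 1.14 in CD115- cells (edgeR adjusted p = 0.0446). The part of cell handling in the low *Hspa1a* and *Hspa1b* of EL4 TB mice was not tested.

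*Hspa8*, which encodes the constitutive HSC70 and alone held 46.5% to 54.0% of the members' summed CPM in every library, had 1500 and 1609 CPM in tCD115- against 2076 and 2206 CPM in tCD115+. In naive mice it had 1468 and 1534 CPM in nCD115- cells against 1640 and 1864 CPM in nCD115+. In each host the libraries of the CD115- subset were the lower ones and did not overlap those of the CD115+ subset. The log2 fold change (tCD115- over tCD115+) was -0.46 (SE 0.09, edgeR adjusted p = 0.00762), which lost significance without tCD115+ replicate 2 (-0.42, edgeR adjusted p = 0.0661) and with only the 4 libraries compared (-0.41, edgeR adjusted p = 0.0546). In naive mice it was -0.22 (SE 0.09, edgeR adjusted p = 0.142), which passed when libraries were scaled by totals alone (-0.33, edgeR adjusted p = 0.0491). Between the hosts *Hspa8* did not pass the test, at 0.05 (95% interval -0.16 to 0.26) in CD115- cells and 0.29 (0.07 to 0.50, edgeR adjusted p = 0.0858) in CD115+ cells. The value in CD115+ cells passed when tCD115- replicate 1 or 2 was left out (edgeR adjusted p of 0.0295 and 0.0248) and with only the 4 libraries compared (edgeR adjusted p = 0.0209). Reads of *Hspa8* can also match processed pseudogenes such as *Gm15459*, since 62.8% of its 100-base windows occurred in transcripts of other genes.

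The partners of HSP70, *Dnajb1* and *Hsph1*, did not pass the test in any of the 4 comparisons when the fit held 1 mean per group. *Dnajb1* had 74.6 and 71.5 CPM in tCD115- against 66.7 and 71.3 CPM in tCD115+, and 84.1 and 75.8 CPM in nCD115- cells against 74.1 and 66.8 CPM in nCD115+. Its highest library was 1.21 times its lowest on the FPKM scale, the narrowest range of the 9 members. The log2 fold change between the subsets was 0.08 (95% interval -0.13 to 0.29) in EL4 TB mice and 0.18 (-0.03 to 0.39) in naive mice. The value in EL4 TB mice turned to -0.0611 when libraries were scaled by their totals alone. Between the hosts (EL4 over naive) *Dnajb1* had -0.13 (-0.34 to 0.08) in CD115- and -0.03 (-0.24 to 0.18) in CD115+ cells. *Hsph1* had 21.1 and 34.2 CPM in tCD115- against 35.8 and 52.7 CPM in tCD115+, and 22.1 and 30.4 CPM in nCD115- cells against 24.3 and 43.3 CPM in nCD115+. Replicate 2 was above replicate 1 in all 4 groups. Without a term for the replicate number its log2 fold change was -0.68 (95% interval -1.46 to 0.11) between the subsets of EL4 TB mice and -0.37 (-1.15 to 0.42) between those of naive mice. Between the hosts *Hsph1* had 0.08 (-0.71 to 0.87) in CD115- and 0.39 (-0.40 to 1.17) in CD115+ cells.

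*Hsp90aa1*, the inducible form, had 435 and 370 CPM in tCD115- and 326 and 393 CPM in tCD115+, against 269 and 283 CPM in nCD115- and 246 and 227 CPM in nCD115+, so that all 4 EL4 libraries were above all 4 naive ones. It was higher in EL4 TB mice by 0.54 (SE 0.12, edgeR adjusted p = 0.0341) in CD115- cells and by 0.60 (SE 0.12, edgeR adjusted p = 0.0256) in CD115+ cells. Leaving out 1 library ended significance in 7 of 8 fits in CD115- cells (edgeR adjusted p of 0.0527 to 0.227, all but that without tCD115- replicate 2). It did so in 6 of 8 in CD115+ cells (edgeR adjusted p of 0.0516 to 0.188, all but those without a tCD115- library). With only the 4 libraries compared it did not pass in CD115- cells (edgeR adjusted p = 0.119). The average over both subsets, 0.57 (SE 0.08, edgeR adjusted p = 0.00407), passed in all 8 such fits (edgeR adjusted p of at most 0.0273). *Hsp90aa1* did not pass the test between subsets (0.16 in EL4 TB and 0.22 in naive mice). *Hsp90ab1*, the constitutive form, had 1024 and 1034 CPM in tCD115- and 1336 and 1408 CPM in tCD115+, against 927 and 870 CPM in nCD115- and 1118 and 1028 CPM in nCD115+. It was lower in tCD115- than in tCD115+ by a log2 fold change of -0.41 (SE 0.08, edgeR adjusted p = 0.00694), lost without tCD115+ replicate 2 (edgeR adjusted p = 0.0649) and with only the 4 libraries compared (edgeR adjusted p = 0.0548). In naive mice it was -0.26 (SE 0.08, edgeR adjusted p = 0.0726). That value passed when tCD115- replicate 1 or 2 was left out (edgeR adjusted p of 0.0229 and 0.0233) and with totals alone (edgeR adjusted p = 0.0340) or DESeq2 (DESeq2 adjusted p = 0.0191). Between the hosts it rose by 0.35 (SE 0.08, edgeR adjusted p = 0.0369) in CD115+ cells. Significance was lost in 6 of 8 fits that left out 1 library (all but those without a tCD115- library, edgeR adjusted p of 0.0645 to 0.254). It was also lost when libraries were scaled by totals alone (edgeR adjusted p = 0.0593). In CD115- cells the difference between hosts was 0.20 (edgeR adjusted p = 0.146). Of the 100-base windows, 47.5% of *Hsp90aa1* and none of *Hsp90ab1* occurred in transcripts of other genes.

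*Hspd1*, which encodes the HSP60 ring of the mitochondrial chaperonin, had 138 and 130 CPM in tCD115- and 162 and 174 CPM in tCD115+, against 108 and 99.5 CPM in nCD115- and 123 and 108 CPM in nCD115+. Every EL4 library was above every naive one. *Hspd1* was higher in EL4 TB mice by 0.37 (SE 0.09, edgeR adjusted p = 0.0455) in CD115- cells and by 0.54 (SE 0.09, edgeR adjusted p = 0.0178) in CD115+ cells. Leaving out 1 library ended significance in 7 of 8 fits in CD115- cells (all but that without tCD115- replicate 2, edgeR adjusted p of 0.0669 to 0.190). It did so in 4 of 8 in CD115+ cells (those without a tCD115+ or nCD115+ library, edgeR adjusted p of 0.0563 to 0.145). Scaling by library totals alone ended it in CD115- cells (edgeR adjusted p = 0.0760), as did a fit of only the 4 libraries compared (edgeR adjusted p = 0.159). Averaged over both subsets it was 0.46 (SE 0.06, edgeR adjusted p = 0.00367), which held in all 8 such fits. Between the subsets of EL4 TB mice *Hspd1* was lower in tCD115- (-0.33, SE 0.09, edgeR adjusted p = 0.0259), without significance when tCD115- replicate 2 or a tCD115+ library was left out (edgeR adjusted p of 0.0502 to 0.152) or with only the 4 libraries compared (edgeR adjusted p = 0.0748). In naive mice it was -0.15 (edgeR adjusted p = 0.281).

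*Hspe1*, which encodes its HSP10 lid, had 28.1 and 27.4 CPM in tCD115- against 45.2 and 48.6 CPM in tCD115+, and 32.3 and 26.1 CPM in nCD115- cells against 40.1 and 38.4 CPM in nCD115+. The libraries of CD115- cells were below those of CD115+ cells in each host. The log2 fold change was -0.76 (SE 0.11, edgeR adjusted p = 0.00196) in EL4 TB mice, which held with any 1 library left out (edgeR adjusted p of at most 0.0213). It was -0.43 (SE 0.11, edgeR adjusted p = 0.0363) in naive mice, which was lost without a tCD115+ library, without nCD115- replicate 2 and without a nCD115+ library (edgeR adjusted p of 0.0723 to 0.203). Between the hosts *Hspe1* had -0.08 (95% interval -0.33 to 0.17) in CD115- and 0.25 (0.01 to 0.50, edgeR adjusted p = 0.162) in CD115+ cells, where it passed with only the 4 libraries compared (edgeR adjusted p = 0.0384). The libraries were made with a stranded kit, but no source used here says whether strand was used in the counting. If it was not, reads from the 96 bases of overlap with *Hspd1* could be assigned to either gene. Of the 100-base windows, 26.9% of *Hspd1* and 20.4% of *Hspe1* occurred in transcripts of other genes.

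Counted over the 9 members, tCD115- against tCD115+ gave 0 calls by edgeR, DESeq2 or limma-voom under both thresholds, where 12.3% of all tested genes were called by edgeR. With edgeR, 4 members had an unadjusted p under 0.05. On the adjusted p alone, 4 of 9 were lower (*Hspa8*, *Hsp90ab1*, *Hspd1* and *Hspe1*), where 19.9% of all genes were lower, and 0 were higher, where 17.7% were. The same 3 tools called 0 members in nCD115- against nCD115+, where edgeR called 6.21% of all genes. With edgeR, 3 members had an unadjusted p under 0.05. On the adjusted p alone only *Hspe1* was lower there, where 3.23% of all genes were lower and 11.8% higher. In tCD115- against nCD115-, 2 of 9 were called lower, where 2.43% of all genes were. On the adjusted p alone the same 2 were lower and 2 were higher, where 6.49% and 3.19% of all genes were. In tCD115+ against nCD115+, 2 of 9 were called lower, where 1.66% of all genes were. On the adjusted p alone 2 were lower and 3 were higher, where 4.2% and 6.09% were. The comparisons of subsets and of hosts use the same 8 libraries and are not independent. Averaged over both subsets 3 of 9 were higher in EL4 TB mice on the adjusted p alone (*Hsp90aa1*, *Hspd1* and *Hsp90ab1*), where 15.4% of all genes were. *Hsp90ab1* was lost there without tCD115+ replicate 2 or nCD115+ replicate 2 (edgeR adjusted p of 0.0679 and 0.0643). Averaged over both hosts 4 of 9 were lower in CD115- cells on the adjusted p alone (*Hspa8*, *Hsp90ab1*, *Hspd1* and *Hspe1*), where 23.8% of all genes were. *Hspe1* had -0.59 there (SE 0.08, edgeR adjusted p = 0.000817), and *Hspd1* was lost without tCD115+ replicate 2, nCD115- replicate 2 or nCD115+ replicate 1 (edgeR adjusted p of 0.0676 to 0.0753).

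**Figure D2:**
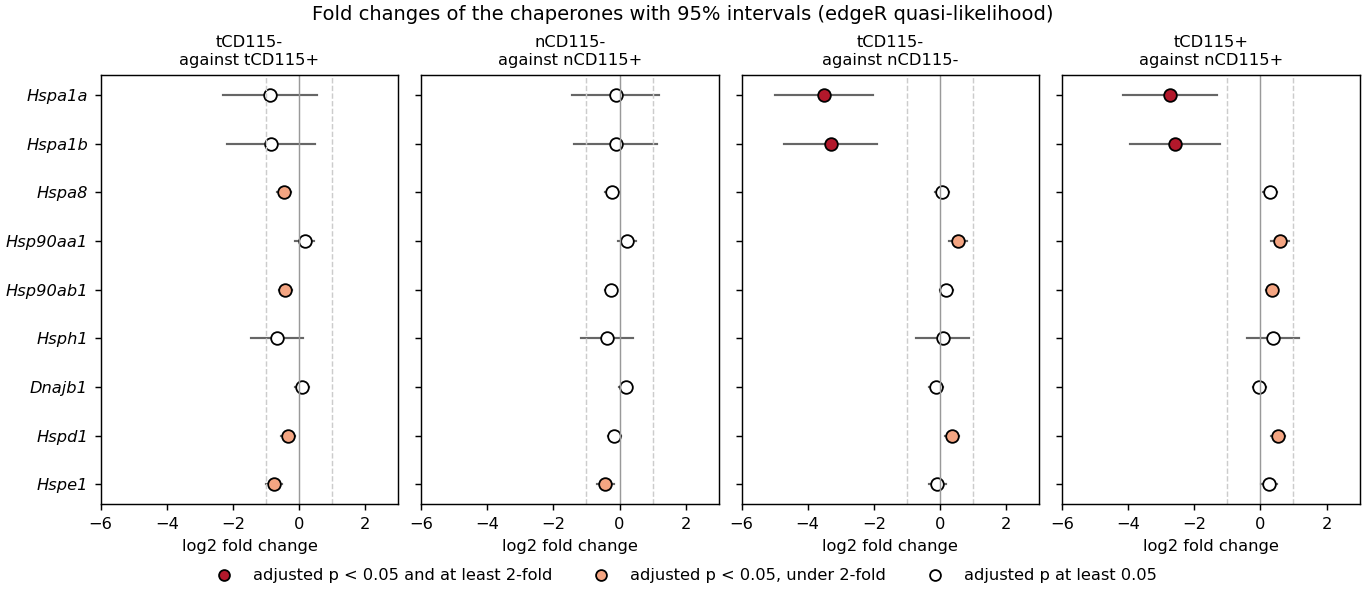
Log2 fold change of each chaperone gene (x axis) with its 95% interval from edgeR's quasi-likelihood test in 4 comparisons, filled by whether it passed the adjusted p and the fold threshold (dashed lines at 2-fold). Only Hspa1a and Hspa1b passed both, at -3.50 and -3.31 in CD115- and -2.73 and -2.58 in CD115+ cells of EL4 TB against naive mice.

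The subset difference was not shown to depend on the host. The interaction, the difference between tCD115- and tCD115+ minus that between nCD115- and nCD115+, passed the adjusted p for 0 of 9 members and for 0% of all genes with edgeR. None of the 9 had an unadjusted p under 0.05 with edgeR, and DESeq2 and limma-voom gave 0 members past the adjusted p. *Hspe1* had the smallest p, with an interaction of -0.33 (95% interval -0.68 to 0.02). The intervals of *Hspa1a* (-2.70 to 1.16) and *Hspa1b* (-2.56 to 1.10) extended past 2-fold in both directions. The median log2 fold change of the 9 members was -0.46 in tCD115- against tCD115+ and -0.15 in nCD115- against nCD115+, beside -0.05 and -0.01 over all tested genes. It was 0.05 in tCD115- against nCD115- and 0.29 in tCD115+ against nCD115+, beside 0.00 and 0.02 over all genes.

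Ratios within a library leave out the scaling between libraries. The inducible pair made up 0.441% and 0.904% of the *Hspa8* level in tCD115- and 0.860% and 0.940% in tCD115+, against 10.7% and 4.30% in nCD115- and 9.99% and 4.17% in nCD115+. *Hsp90aa1* over *Hsp90ab1* was 0.425 and 0.358 in tCD115- against 0.244 and 0.279 in tCD115+, and 0.291 and 0.325 in nCD115- against 0.220 and 0.221 in nCD115+. The CD115- libraries thus had the higher share of the inducible form in each host, without overlap. *Hspd1* over *Hspe1* was 4.90 and 4.74 in tCD115- against 3.59 and 3.57 in tCD115+, and 3.33 and 3.81 in nCD115- against 3.05 and 2.80 in nCD115+. These CPM ratios are not ratios of transcript numbers, because *Hspd1* is the longer mRNA. On the authors' FPKM scale *Hspd1* over *Hspe1* lay between 0.923 and 1.62. The 9 members together held 3227 and 3290 CPM in tCD115- and 4065 and 4374 CPM in tCD115+, against 3067 and 2986 CPM in nCD115- and 3429 and 3453 CPM in nCD115+. These sums are 0.299% to 0.437% of a library. These ratios and sums are given as values, without a test.

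**Figure D3:**
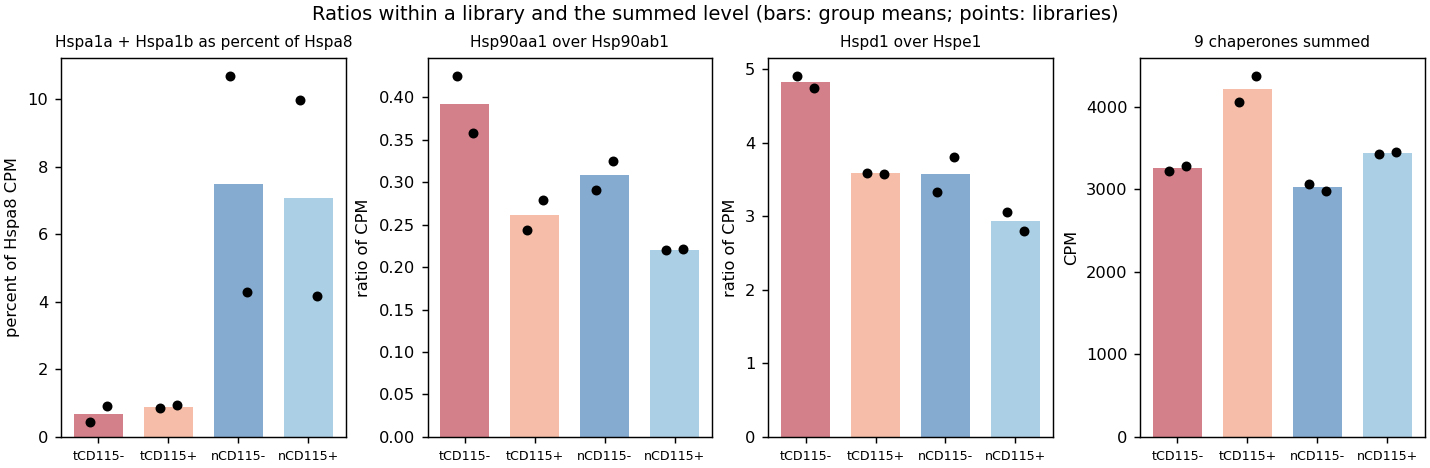
Ratios of chaperone mRNAs within each library and their summed CPM, with bars at group means, points for the 2 libraries of a group and axes from 0. The inducible pair reached 4.17% to 10.7% of the Hspa8 level in naive libraries and stayed under 1% in EL4 libraries.

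The rest of the chaperone network was read from 10 lists. Among 8 other HSP70 genes tested, *Hspa9*, the mitochondrial HSP70, was lower in tCD115- than in tCD115+ (-0.45, SE 0.08, edgeR adjusted p = 0.00427) and higher in tCD115+ than in nCD115+ (0.45, SE 0.08, edgeR adjusted p = 0.02). *Hspa4*, an HSP110 relative, was lower in tCD115- than in tCD115+ (-0.26, edgeR adjusted p = 0.0328). *Hspa12a*, a distant relative present at 1.23 CPM on average, was called higher in CD115- cells, by 1.42 in EL4 TB mice (edgeR adjusted p = 0.00881) and 1.13 in naive mice (edgeR adjusted p = 0.0384). On the adjusted p, 2 of the 8 were higher and 3 lower between the subsets of EL4 TB mice, where 17.7% of all tested genes were higher and 19.9% lower. Between those of naive mice 2 were higher and 0 lower, where 11.8% and 3.23% of all genes were. Between the hosts 0 passed in CD115- cells and 1 was higher in CD115+ cells, where 6.09% of all genes were.

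None of the 17 other J-domain genes was called in any of the 4 comparisons. *Dnajc5*, a synaptic vesicle cochaperone, was higher in CD115- cells by 0.37 in EL4 TB mice (edgeR adjusted p = 0.00657) and 0.27 in naive mice (edgeR adjusted p = 0.0434). *Dnajc7*, which also binds HSP90, had -0.19 in EL4 TB and -0.11 in naive mice. Between the subsets of EL4 TB mice 2 of 17 were higher and 2 lower past the adjusted p, where 17.7% and 19.9% of all genes were. Between those of naive mice 2 were higher, a share near the 11.8% of all genes. Between the hosts 0 were higher in CD115- and 1 in CD115+ cells, where 3.19% and 6.09% of all genes were. Of 17 HSP90 cochaperones, none was called either. Among them 16 had a positive log2 fold change in tCD115- against nCD115- and 14 in tCD115+ against nCD115+. Their medians were 0.20 and 0.19, beside 0.00 and 0.02 over all tested genes. Of these 17 cochaperones, 1 and 3 were higher past the adjusted p, where 3.19% and 6.09% of all genes were. *Ahsa1*, which stimulates the HSP90 ATPase, was higher by 0.42 in tCD115+ than in nCD115+ (edgeR adjusted p = 0.0218) and had 0.26 in CD115- cells (edgeR adjusted p = 0.0657). *Cdc37*, the kinase cochaperone, had 0.06 in CD115- and 0.10 in CD115+ cells. Between subsets 3 cochaperones were higher in EL4 TB and 1 in naive mice, where 17.7% and 11.8% of all genes were. Among 9 genes of nucleotide exchange and degradation, *Bag2*, an inhibitor of the ubiquitin ligase CHIP, was called higher in tCD115- than in nCD115- (1.54, SE 0.37, edgeR adjusted p = 0.0438) at a mean of 0.929 CPM over the libraries. *Bag1* (0.12) and *Bag6* (0.02) did not pass in that comparison. Of these 9 genes 3 were lower in tCD115- than in tCD115+, where 19.9% of all genes were, and none passed between the subsets of naive mice or between the hosts in CD115+ cells.

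*Hsf1*, the main activator of heat shock genes, had 25.2 and 34.9 CPM in tCD115- against 38.7 and 39.1 CPM in tCD115+, and 35.9 and 36.5 CPM in nCD115- cells against 39.0 and 40.1 CPM in nCD115+. Its log2 fold changes between the hosts were -0.27 (edgeR adjusted p = 0.218) in CD115- and -0.02 (edgeR adjusted p = 0.939) in CD115+ cells. *Hsf2*, its relative, had 15 and 17.2 CPM in tCD115- against 33.8 and 34.7 CPM in tCD115+ and was lower by 1.09 (SE 0.13, edgeR adjusted p = 0.000916). It was the 1 call among the 5 factors and regulators tested, where 12.3% of all tested genes were called. *Hsbp1*, which binds HSF1, had 0.01 in the same comparison, and none of the 5 passed in the other 3 comparisons. Of 3 genes tested in a list headed small heat shock proteins, *Hspb11* was lower in tCD115- than in tCD115+ (-0.61, edgeR adjusted p = 0.0496), where 19.9% of all genes were lower past the adjusted p. *Hspb11* had a mean of 3.35 CPM, and a chaperone role of its protein was not examined. *Hspb6* had -0.04 there, and none of the 3 passed elsewhere.

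In tCD115+ against nCD115+, 4 of 8 subunits of the cytosolic chaperonin TRiC were higher on the adjusted p, where 6.09% of all genes were. All 8 had a positive log2 fold change, with a median of 0.30 beside 0.02 over all tested genes. The 2 most abundant did not pass, with *Cct2* at 0.29 (edgeR adjusted p = 0.0542) and *Cct5* at 0.13 (edgeR adjusted p = 0.307). None of the 8 passed in tCD115- against nCD115- (median 0.21) or between the subsets of naive mice, and 2 were lower in tCD115- than in tCD115+, where 19.9% of all genes were. Of 6 prefoldin subunits, which hand actin and tubulin to TRiC, 1 was higher in tCD115+ than in nCD115+, where 6.09% of all genes were. None passed in the other 3 comparisons. *Pfdn5* had -0.12 and *Vbp1* 0.17 in tCD115+ against nCD115+. Of 14 mitochondrial chaperones and proteases, 2 were higher in tCD115+ than in nCD115+ (median 0.17), where 6.09% of all genes were. None was higher in tCD115- than in nCD115- (median 0.14), where 3.19% of all genes were. In tCD115- against tCD115+ 3 were lower, a share near the 19.9% of all genes, and *Yme1l1*, a protease of the inner membrane, had 0.05. *Hspa9*, counted above with the HSP70 genes, is also in this list, among those higher and among those lower. Chaperones of the endoplasmic reticulum showed the highest counts, with 7 of 14 higher in tCD115- than in nCD115- (median 0.37) and 8 of 14 in tCD115+ than in nCD115+ (median 0.42), where 3.19% and 6.09% of all genes were higher. *Pdia3*, a disulfide isomerase, was higher by 0.37 (edgeR adjusted p = 0.0299) in CD115- and 0.36 (edgeR adjusted p = 0.0311) in CD115+ cells. *Hsp90b1*, the HSP90 of the reticulum, had 0.22 (edgeR adjusted p = 0.169) and 0.35 (edgeR adjusted p = 0.0642). Between subsets 3 of the 14 were lower in tCD115- than in tCD115+, again a share near that of all genes. In naive mice 1 was lower in nCD115- than in nCD115+, where 3.23% of all genes were. None of these 4 lists had a member called in any of the 4 comparisons. In the same comparisons of hosts 10 and 16 of 20 cell cycle genes were higher in EL4 TB mice past the adjusted p, where 3.19% and 6.09% of all genes were. Their summed level was 6571 to 8101 CPM in EL4 against 4393 to 6109 CPM in naive libraries. The part of cell division in the higher chaperone mRNAs was not tested.

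**Figure D4:**
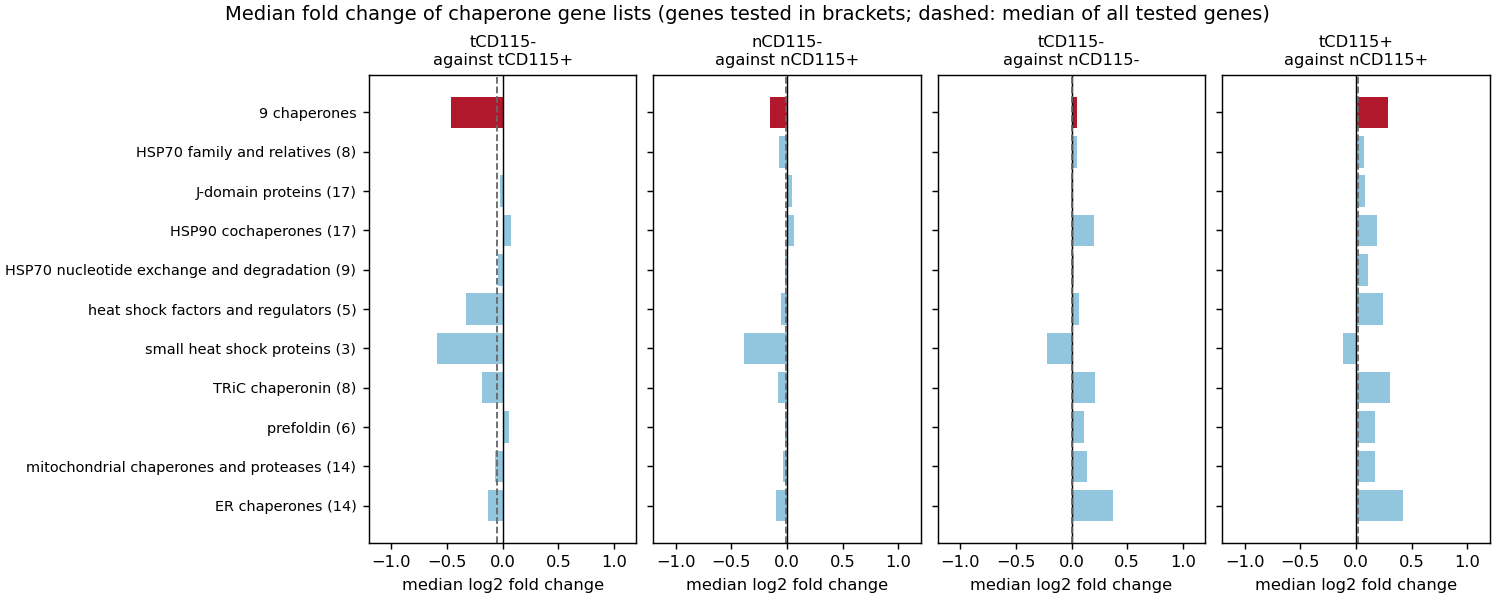
Median log2 fold change (x axis) of the 9 members in red and of 10 chaperone lists in blue for 4 comparisons, with the number of genes tested in brackets and a dashed line at the median of all 13211 genes. Chaperones of the endoplasmic reticulum reach 0.37 and 0.42 in EL4 TB against naive mice, and the 9 members reach -0.46 in tCD115- against tCD115+.

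Over the 8 libraries, *Hspa1a* and *Hspa1b* correlated at Pearson r = 0.998 on log2 CPM, *Hspd1* with *Hsp90ab1* at 0.92, *Hspa8* with *Hsp90ab1* at 0.88 and with *Hspe1* at 0.86, and *Hsp90aa1* with *Hspa1a* at -0.91. These values are descriptions, since the 8 points share 4 groups. *Hspa1a* and *Hspa1b* also share sequence, and the split of reads between them is uncertain, so their rows are not separate measurements. Among 8475 other genes that averaged 10 CPM or more, those most like *Hspa8* were *Aven*, *Chid1*, *Mrps2*, *Ctnnb1* and *Glmp* (r = 0.98 to 0.99). Those most like *Hsph1* were *Smarcd1*, *Lxn*, *Ski*, *Trappc12* and *Sec31a* (r = 0.92 to 0.97), and those closest to *Hspd1* were *Bsg*, *Yars*, *Rars2*, *Ddx20* and *Mrpl42* (r = 0.99 to 1.00). For *Hspa1b*, added after its values were seen, they were *Mtfr1l*, *Btg2*, *Parp11*, *Phf11d* and *Rbm41* (r = 0.98 to 0.99). *Btg2*, an antiproliferative gene that is also in the list of immediate early genes, fell between the hosts by 1.00 in CD115- and 0.85 in CD115+ cells. Because *Btg2* was picked for its likeness to *Hspa1b* over these 8 libraries, a fall between the hosts follows from that choice and is not separate support.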

How the data were processed

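RNA of 8 libraries of sorted BM monocytic cells was sequenced, 2 per group. The authors deposited 1 table with read counts per gene and library, whole numbers that are not normalized, and with FPKM, which the authors scaled by gene length and library size. The tools named, without roles, in the submitters' processing notes are StringTie (1.3.3b), HISAT2 (2.0.5), Bowtie2 and DESeq2, with build mm10. Per the study's methods the library kit was stranded, and no source used here says whether reads were counted by strand. Left unused were 12 other columns that hold values of samples or groups, and 24 columns that hold the authors' fold changes, means, errors, statistics and p-values for 4 comparisons. Members were matched by symbol, and all 9 gene IDs matched RefSeq on GRCm38.p6.

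Counts were analysed in R 4.3.3 with edgeR 4.0.16. Genes with low counts were removed by filterByExpr, which left 13211 of 16160, and TMM scaling was used. A robust quasi-likelihood model with 1 mean per group was fitted to all 8 libraries (4 residual degrees of freedom, median prior 3.65). Genes counted as called had a fold change of 2 or more and a p under 0.05 after Benjamini-Hochberg adjustment, the thresholds of the study, and the adjusted p alone served as a second rule. Intervals are 95%. The median library had 91432632 reads, at which 1 read is 0.0109 CPM. The p-values rest on a spread per gene that was estimated over all 8 libraries, 2 per group, and moderated across genes. The script was tested on simulated data.

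The members and the gene lists were chosen with earlier results of these data known. Named genes are the 9 members, up to 4 called genes per chaperone list and comparison or, with fewer than 2 called, the 2 most abundant by CPM, and the 5 genes most correlated with *Hspa8*, *Hsph1* and *Hspd1*. *Hspa1b* was added to these 3, and *Atf3*, *Fos*, *Ier3* and *Btg2* were named, after values were seen. Alternatives were relative log expression (RLE) factors, library totals alone, DESeq2 1.42.0, limma-voom (limma 3.58.1), other filters on low counts, a fit without robust estimation, a replicate block, *Hspa1a* and *Hspa1b* summed, only the 4 libraries compared, and each library left out; they were run for the 9 members, not for the other lists. Contrasts averaged over subsets or hosts were chosen after seeing the data. Figures were drawn with Python 3.11.15 and matplotlib 3.10.9.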

Additional observations from a re-analysis of the deposited data

How the results depend on the processing

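Under RLE factors, a filter of at least 10 counts in every library, limma-voom and a fit without robust estimation, every count of members and every direction was that given above. Without a filter on low counts, tCD115+ against nCD115+ had 0 members called and 3 past the adjusted p. Library totals alone moved the median of all genes to -0.20 in tCD115- against tCD115+ and -0.12 in nCD115- against nCD115+, from -0.05 and -0.01 with TMM. They gave 3 members past the adjusted p in nCD115- against nCD115+ (2 with DESeq2), turned *Dnajb1* in tCD115- against tCD115+ to -0.0611, and put the mean summed CPM of the members at 3072 in tCD115-, 2940 in nCD115- and 3613 in nCD115+. With only the 4 libraries compared, 0 members were called in either comparison of hosts, 1 passed the adjusted p in tCD115- against tCD115+ and 0 passed in tCD115- against nCD115-. With *Hspa1a* and *Hspa1b* summed into 1 row, 1 row was called in each comparison of hosts. The causes of these changes were not tested, except that the summed row replaces 2 members.

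No source used here says whether same-numbered libraries come from the same animals. Deviations of same-numbered libraries from their group means correlated at -0.10 to 0.08 between groups over all genes, which did not show a pairing, although single members such as *Hsph1* had the same order of replicates in all 4 groups. With a replicate block, tCD115+ against nCD115+ had 0 members called and 3 past the adjusted p, with *Hspa1a* and *Hspa1b* at edgeR adjusted p of 0.0508 and 0.0545. tCD115- against nCD115- had 2 past it, with *Hsp90aa1* and *Hspd1* at edgeR adjusted p of 0.0509 and 0.0525. *Hsph1* passed it in tCD115- against tCD115+ (-0.69, edgeR adjusted p = 0.00484), where 5 members then did, and averaged over both hosts (-0.51, edgeR adjusted p = 0.00275). *Hspa8* passed it between the hosts averaged over both subsets (0.17, edgeR adjusted p = 0.0432).

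With 1 library left out, the members called numbered 0 to 2 in each comparison of hosts and in their average. Those past the adjusted p numbered 1 to 4 in tCD115- against tCD115+, 0 to 2 in nCD115- against nCD115+, 0 to 2 in tCD115- against nCD115- and 0 to 4 in tCD115+ against nCD115+. Signs turned only for values that had not passed the test. Between the subsets of naive mice *Hspa1a* ranged from -0.89 to 0.52, *Hspa1b* from -0.85 to 0.51 and *Hsph1* from -0.72 to 0.11. In tCD115- against nCD115- *Hspa8* ranged from -0.00287 to 0.10, *Hsph1* from -0.31 to 0.38 and *Hspe1* from -0.22 to 0.0798. In tCD115+ against nCD115+ *Dnajb1* ranged from -0.10 to 0.0471, and in the interaction *Hspa1a* ranged from -1.53 to 0.0223, *Hspa1b* from -1.37 to 0.0142, *Hsp90aa1* from -0.19 to 0.0799 and *Hsph1* from -0.79 to 0.0458.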
